A study of Mus musculus with 6 samples.

Results

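Regulatory T cells (Tregs) restrain other immune cells with a set of secreted and surface molecules, and 9 genes of such molecules are described here in mouse splenic Tregs with and without Nfkb2. They are Il10, Ebi3, Il12a, Lrrc32, Gzmb, Entpd1, Nt5e, Fgl2 and Areg, a list of suppressive cytokines, ectoenzymes, a granzyme and a tissue repair factor taken by name from the 55573 gene identifiers of the count tables. The libraries were 3 from Nfkb2-/- Tregs and 3 from wild type Tregs, sorted to over 90% purity from the spleen of bi-parental chimeras, in which bone marrow of 2 origins rebuilds the blood system of a host. Sorted cells of both genotypes were held in medium at 37 °C for 2 h before lysis. The labels give the genotype only as Nfkb2-/- or wild type, name no Cre driver, and give no mouse age, sex, strain or number of animals per library, and no account of the cells a host still had. The p-values therefore measure the spread between libraries that the labels call biological repeats.

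Tregs act on other cells in several ways. They secrete interleukin-10, which dampens antigen-presenting cells, and mouse Tregs can pair the chains Ebi3 and p35 (Il12a) into interleukin-35. The surface protein GARP (Lrrc32) holds latent TGF-beta, the ectoenzymes CD39 (Entpd1) and CD73 (Nt5e) degrade extracellular ATP stepwise to adenosine, granzyme B (Gzmb) kills target cells, and soluble Fgl2 binds an inhibitory Fc receptor. Amphiregulin (Areg), a ligand of the EGF receptor, serves tissue repair. Nfkb2 encodes p100, which restrains RelB-containing NF-kB dimers and is the precursor of p52, both parts of the non-canonical NF-kB pathway.

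No member was called higher or lower in Nfkb2-/- Tregs, but their mean levels differed in direction. Areg averaged 3.11-fold of the wild type level and Ebi3 1.93-fold, each without overlap between genotypes. Il10 averaged 53.1% of wild type, with overlap through a single wild type library. Lrrc32, Nt5e, Fgl2, Gzmb and Entpd1 averaged 86.5% to 128% of wild type with overlapping libraries, and Il12a was close to absent. Of the 9 members 8 passed the count filter, and 0 of these 8 were called (quasi-likelihood test of edgeR, adjusted p under 0.05 by Benjamini-Hochberg), where 1.42% of the 13347 genes tested were called. DESeq2 and limma-voom also called 0 members, where they called 3.69% and 1.39% of all genes tested, and 2 members, Areg and Ebi3, had an unadjusted edgeR p under 0.05, as did 13.6% of all genes tested. The same 2 did not overlap between genotypes, against 20.6% of all genes tested. The median log2 fold change of the 8 members was 0.16, beside -0.03 over all genes tested, and 6 of 8 were positive, against 45% of all genes. Without wild type replicate 1 the members' median was -0.074, and only Areg, Ebi3 and Lrrc32 were positive. In sorted bulk cells, fewer cells carrying a transcript and less of it in each cell cannot be told apart.

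**Figure D1:**
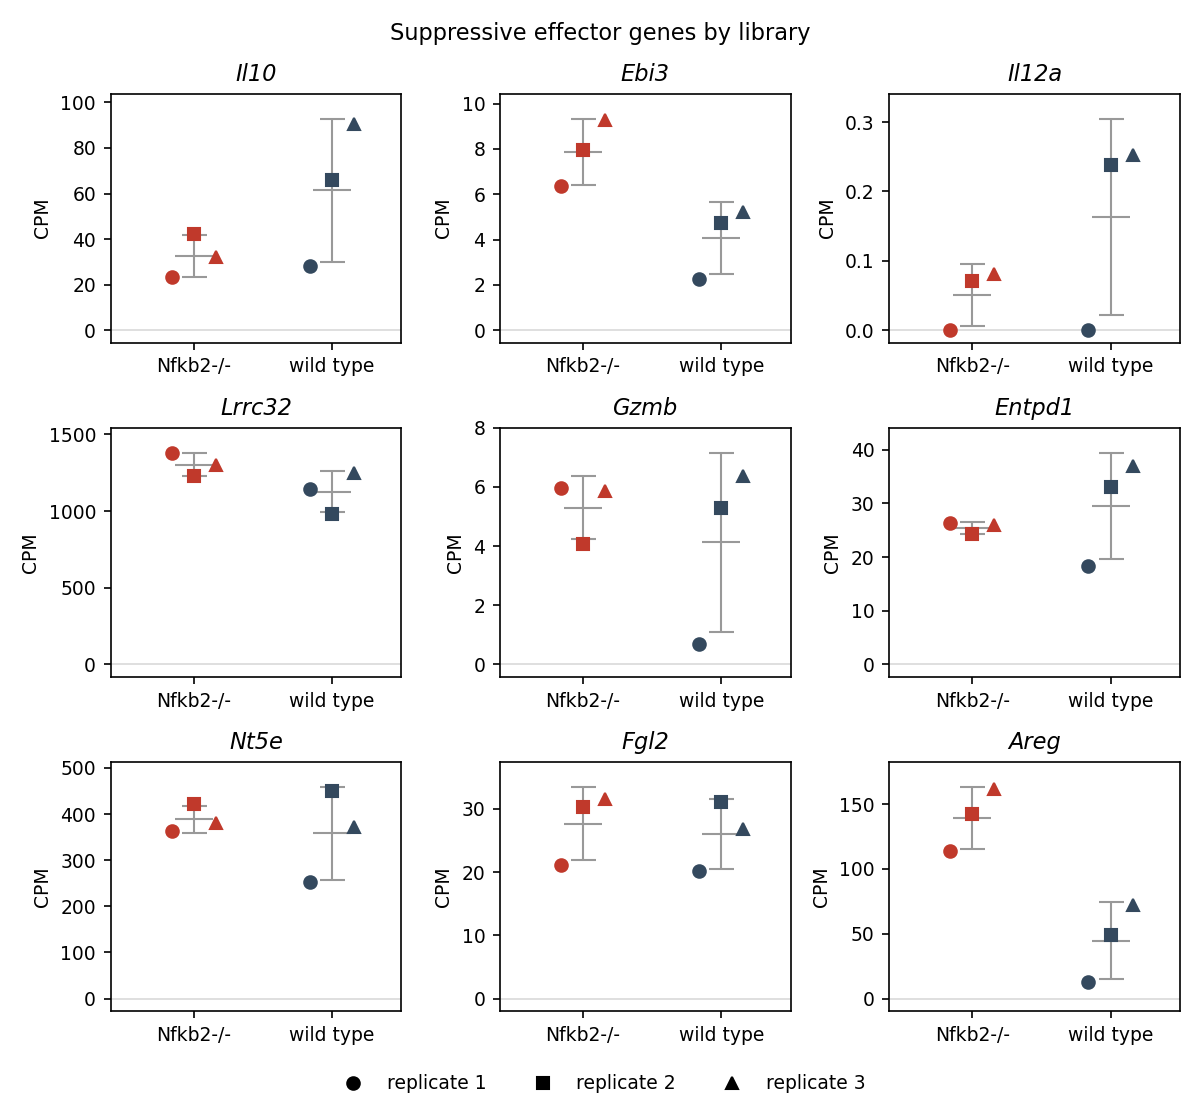
Level of each of the 9 genes in CPM (counts scaled to library size, vertical axis) in every library, Nfkb2-/- in red and wild type in blue, with the mean and SD of 3 libraries in grey and marker shapes for replicate numbers. Areg and Ebi3 are higher in all 3 Nfkb2-/- libraries than in the 3 wild type ones, and wild type replicate 1 is the lowest wild type library in 7 of the 8 tested genes.

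The libraries held 12005273 to 17278521 counts. Nfkb2 was at 269 to 324 CPM in Nfkb2-/- libraries and 545 to 558 CPM in wild type libraries, so its transcript was lowered but present. Treg markers were present in every library, with Foxp3, which defines the lineage, at 448 to 576 CPM in Nfkb2-/- Tregs and 407 to 622 CPM in wild type, and none of 7 markers was called. Xist, expressed in female cells, was at 592 to 883 CPM in Nfkb2-/- Tregs and 1.94 to 16.5 CPM in wild type. The 4 Y-linked genes summed to 40.0, 138 and 275 CPM in Nfkb2-/- Treg replicates 1 to 3 and 465 to 498 CPM in wild type. Genotype and donor sex therefore cannot be told apart. Each Nfkb2-/- library also held Y-linked transcripts beside Xist, in unequal amounts. The labels do not give the origin or genotype of the cells these came from, and it was not tested. This limits every Nfkb2-/- value given here, that of Nfkb2 included. Wild type replicate 1 stood apart: it gave the lowest wild type level of 7 of the 8 tested members and of 42.2% of all genes tested, and the lowest of all 6 libraries for 6 members, against 31.5% of all genes. It held 17278521 counts, the deepest library. Results for the members are therefore given with and without it. Without it 1 member of 8 was called higher and 2 lower, while 9.04% of 13651 genes tested were called. This library was singled out partly by the members' own values. Calls without it therefore show how far results depend on 1 library and are no separate support for a change.

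Areg stood highest above its wild type level. It was at 114, 142 and 161 CPM in Nfkb2-/- Treg replicates 1, 2 and 3, against 12.8, 49.3 and 72.0 CPM in the wild type replicates 1, 2 and 3. The lowest Nfkb2-/- library lay above the highest wild type library, and the wild type libraries spread over a wider relative range. Means were 139 ± 23.9 CPM in Nfkb2-/- Tregs and 44.7 ± 29.8 CPM in wild type Tregs (SD, n = 3 each). The log2 fold change was 1.64 (SE 0.516, 95% interval 0.45 to 2.84, edgeR adjusted p = 0.201). Without wild type replicate 1 it was 1.20, and Areg was called higher (edgeR adjusted p = 0.00384), as were 4.6% of all genes in that fit. With the summed level of 12 B cell markers as a covariate it was 3.23 and Areg also rose (edgeR adjusted p = 0.0429), where 6.24% of all genes tested did. That sum did not overlap between the genotypes, so fits with it, here and below, cannot tell B cell content from genotype. Basophils also make amphiregulin. Of 5 basophil and mast cell markers, Mcpt8, Cpa3, Fcer1a and Ms4a2 reached at most 0.248 CPM in any library, whereas Kit, a receptor shared with mast cells and progenitors, was at 19.0 to 24.6 CPM in Nfkb2-/- Tregs and 5.46 to 9.87 CPM in wild type (edgeR adjusted p = 0.0342).

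Ebi3, the beta chain of interleukin-35 and of interleukin-27, was at 6.37, 7.95 and 9.28 CPM in Nfkb2-/- Treg replicates 1 to 3, against 2.27, 4.75 and 5.21 CPM in the wild type replicates 1 to 3. The genotypes did not overlap, but the highest wild type and lowest Nfkb2-/- libraries differed by less than counting error, since 77 counts in Nfkb2-/- replicate 1 give an exact Poisson 95% interval of 5.03 to 7.96 CPM and 62 counts in wild type replicate 3 one of 3.99 to 6.68 CPM. Means were 7.87 ± 1.46 CPM in Nfkb2-/- Tregs and 4.07 ± 1.58 CPM in wild type Tregs (SD, n = 3 each), for a log2 fold change of 0.96 (SE 0.344, 95% interval 0.17 to 1.76, edgeR adjusted p = 0.268). It was 0.66 without wild type replicate 1 (edgeR adjusted p = 0.105). With the B cell marker covariate it was 1.81 and Ebi3 rose (edgeR adjusted p = 0.0263), where 6.24% of all genes tested did. Ebi3 shares 270 of its 1154 exon bases with the antisense gene Gm16712, which had 17 to 38 counts in Nfkb2-/- and 17 to 22 in wild type. The kit does not mark strand, so reads within the shared bases cannot be told apart, and how they were counted is not given. Il12a, the partner chain, had 0, 1 and 1 counts in Nfkb2-/- Treg replicates 1 to 3, against 0, 3 and 3 in the wild type replicates 1 to 3. That is 2 counts against 6, a ratio of 0.372 with a 95% counting interval of 0.0368 to 2.08, so no difference was detectable at this depth. A count of 0 allows up to 0.248 CPM in Nfkb2-/- replicate 1 and 0.162 CPM in wild type replicate 1, at 3 counts, and these limits cover counting error only.

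The promoter windows of Areg and Ebi3 are printed because these members alone separated the genotypes. Each runs from 250 bases before to 50 bases after the annotated start, 5′ to 3′ on the plus strand, from RefSeq on GRCm38.p6, for Areg at chr5:91139349-91139648 and for Ebi3 at chr17:55952373-55952672. Capitals mark matches to motifs searched on both strands: an NF-kB pattern, GGGNNNNNCC, and a cyclic AMP response element (CRE), TGACGTCA. An AP-1 pattern, TGANTCA, was searched too and had no match in either window.
Areg: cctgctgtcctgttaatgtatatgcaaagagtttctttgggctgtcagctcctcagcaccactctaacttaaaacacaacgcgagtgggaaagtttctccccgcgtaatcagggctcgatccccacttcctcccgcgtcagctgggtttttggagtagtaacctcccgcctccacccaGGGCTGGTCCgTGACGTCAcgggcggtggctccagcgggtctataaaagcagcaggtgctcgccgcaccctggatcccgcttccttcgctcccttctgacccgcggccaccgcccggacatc
Ebi3: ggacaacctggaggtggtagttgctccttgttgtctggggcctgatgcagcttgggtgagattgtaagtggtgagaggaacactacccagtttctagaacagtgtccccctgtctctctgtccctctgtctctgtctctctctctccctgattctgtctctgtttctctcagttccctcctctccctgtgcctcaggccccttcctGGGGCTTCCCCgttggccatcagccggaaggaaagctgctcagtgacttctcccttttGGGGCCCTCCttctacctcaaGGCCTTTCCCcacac
Areg held 1 NF-kB match, first base 72 bases before the start, and next to it 1 CRE match, first base 61 bases before the start. Ebi3 held 4 NF-kB matches, of which 2 overlap at 44 and 43 bases before the start. Windows existed for 7 members in all, 9 windows, and 5 members had an NF-kB match in at least one, 2 an AP-1 match (Gzmb and Fgl2) and 1 a CRE match. Of all 32851 promoter windows of this length, 50.8% held the NF-kB pattern, 7.81% the AP-1 pattern and 1.79% the CRE. These shares are per window, whereas members were counted with a match in any of their windows, so the units differ. The NF-kB pattern is loose and common, and matches are letters in a window, not binding sites.

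Il10 was on average lower in Nfkb2-/- Tregs. It was at 23.5, 42.2 and 32.2 CPM in Nfkb2-/- Treg replicates 1, 2 and 3, against 28.2, 65.8 and 90.4 CPM in the wild type replicates 1, 2 and 3. Wild type replicate 1 lay within the Nfkb2-/- range and the other wild type libraries lay above it. Means were 32.6 ± 9.34 CPM in Nfkb2-/- Tregs and 61.5 ± 31.3 CPM in wild type Tregs (SD, n = 3 each), for a log2 fold change of -0.91 (SE 0.401, 95% interval -1.84 to 0.02, edgeR adjusted p = 0.378). Without wild type replicate 1 the log2 fold change was -1.26, and Il10 was called lower (edgeR adjusted p = 0.0143), as were 4.44% of all genes in that fit. B cells and myeloid cells also make interleukin-10. The 12 B cell markers summed to 35.7 to 66.2 CPM in Nfkb2-/- Tregs and 91.8 to 324 CPM in wild type, with none at 0 in every library. All 12 had negative log2 fold changes, from -0.71 for Cd22 to -3.54 for Cr2. Of the 12, 2 were called lower, where 0.405% of all genes tested were. With that sum as a covariate the log2 fold change of Il10 was 0.090 (edgeR adjusted p = 0.921). The sum did not overlap between the genotypes, so this fit cannot tell B cell content from genotype, and no conclusion on Il10 is drawn from it. The 12 macrophage and dendritic cell markers summed to 18.2 to 49.5 CPM in Nfkb2-/- Tregs and 23.1 to 113 CPM in wild type, with 0 called, and their part in the Il10 level was not tested.

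Areg and Il10 had log2 fold changes of opposite sign, and their ratio within a library does not depend on library scaling. Areg counts per Il10 count were 4.85, 3.37 and 5.00 in Nfkb2-/- Treg replicates 1 to 3, against 0.456, 0.749 and 0.796 in the wild type replicates 1 to 3. Areg thus exceeded Il10 in all Nfkb2-/- libraries and Il10 exceeded Areg in all wild type libraries, wild type replicate 1 included, with no overlap of the exact 95% counting intervals between genotypes. The geometric mean was 4.34 in Nfkb2-/- and 0.648 in wild type, a 6.70-fold difference. An exact two-sided permutation test over the 6 libraries gave p = 0.1, the smallest that 3 against 3 allows, and 0.1 after adjustment over the 2 ratios computed. This ratio was chosen after the values were seen.

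**Figure D2:**
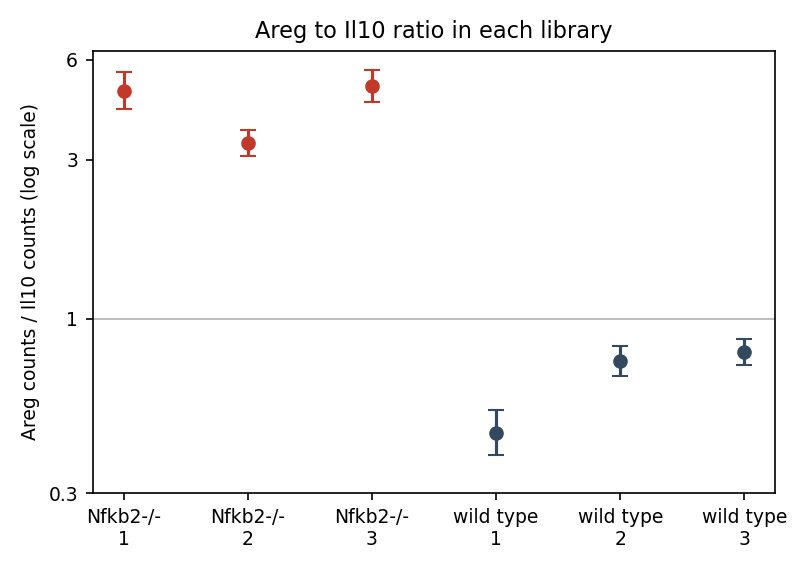
Areg counts divided by Il10 counts in each library (vertical axis, log scale, no unit), Nfkb2-/- in red and wild type in blue, with exact 95% binomial counting intervals as bars. The Nfkb2-/- libraries lie between 3.37 and 5.00 and the wild type libraries between 0.456 and 0.796, on either side of 1.

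The ectoenzyme genes stayed within the spread of wild type. Nt5e was at 364, 421 and 381 CPM in Nfkb2-/- Treg replicates 1 to 3, against 252, 451 and 371 CPM in the wild type replicates 1 to 3. Its genotypes overlapped fully, with a log2 fold change of 0.12 (SE 0.212, 95% interval -0.37 to 0.61, edgeR adjusted p = 0.872). It turned to -0.082 without wild type replicate 1. With the B cell marker covariate it was 0.74 and Nt5e rose (edgeR adjusted p = 0.0478), where 6.24% of all genes tested did. Entpd1, the enzyme of the preceding step, was far less abundant, at 26.3, 24.2 and 26.0 CPM in Nfkb2-/- Treg replicates 1 to 3 and 18.3, 33.2 and 37.0 CPM in wild type replicates 1 to 3. Wild type libraries lay on both sides of the Nfkb2-/- libraries, with a log2 fold change of -0.21 (SE 0.253, 95% interval -0.79 to 0.38, edgeR adjusted p = 0.798). Without wild type replicate 1, Entpd1 was called lower, with a log2 fold change of -0.46 (edgeR adjusted p = 0.0396), as were 4.44% of all genes in that fit. With the B cell marker covariate its log2 fold change turned to 0.44 (edgeR adjusted p = 0.316). Entpd1 counts per Nt5e count were 0.0724, 0.0575 and 0.0681 in Nfkb2-/- Treg replicates 1 to 3, beside 0.0726, 0.0736 and 0.0997 in the wild type ones, so the nearest libraries of the genotypes differed by less than counting error (exact two-sided permutation p = 0.1, the smallest possible).

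Lrrc32 had the highest level of the members. It was at 1378, 1230 and 1298 CPM in Nfkb2-/- Treg replicates 1 to 3, against 1147, 983 and 1250 CPM in the wild type replicates 1 to 3. Wild type replicate 3 fell among the Nfkb2-/- libraries, and the log2 fold change was 0.21 (SE 0.157, 95% interval -0.15 to 0.57, edgeR adjusted p = 0.645). Platelets also carry GARP. Their 5 markers, shared with megakaryocytes, summed to 2.61 to 3.97 CPM in Nfkb2-/- Tregs and 2.93 to 6.36 CPM in wild type Tregs, of which Itga2b made up most, at 2.52 to 3.89 CPM and 2.93 to 6.09 CPM. Ppbp and Gp1bb had no count in any library, Pf4 and Gp9 reached at most 0.0814 and 0.270 CPM, and the part of such cells in the Lrrc32 level was not tested.

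Gzmb and Fgl2 were low and overlapped. Gzmb was at 5.96, 4.08 and 5.86 CPM in Nfkb2-/- Treg replicates 1 to 3, against 0.701, 5.30 and 6.38 CPM in the wild type replicates 1 to 3. The low value of wild type replicate 1 rested on 13 counts (exact Poisson 95% interval 0.373 to 1.20 CPM) and lay below the intervals of all other libraries. The log2 fold change of Gzmb was 0.38 (SE 0.648, 95% interval -1.12 to 1.88, edgeR adjusted p = 0.864) and turned to -0.14 without that library. With the B cell marker covariate it was 2.46 (edgeR adjusted p = 0.071). CD8 T and natural killer cells also make granzyme B, and their 10 markers summed to 41.0 to 54.2 CPM in Nfkb2-/- Tregs and 29.1 to 57.7 CPM in wild type Tregs. Wild type replicate 1 was the lowest library in that sum and for Nkg7, a granule membrane protein gene, at 1.83 CPM against 8.36 to 17.6 CPM in the other 5 libraries. Gzma and Eomes were also lowest there, at 0.539 and 4.26 CPM, and Eomes, at 15.0 to 21.8 CPM in Nfkb2-/- Tregs, weighed heavily in the sum. Other markers went the other way. Klrd1 was highest in wild type replicate 1, at 5.02 CPM against 0.662 to 1.98 CPM elsewhere. Cd8b1 was at 10.7 CPM there, above the 6.26 to 8.94 CPM of Nfkb2-/- Tregs. The natural killer receptor gene Ncr1 was at 0.489 CPM or less in every library, and the part of these cells in the Gzmb level was not tested. Fgl2 was at 21.1, 30.3 and 31.6 CPM in Nfkb2-/- Treg replicates 1 to 3, against 20.2, 31.1 and 26.8 CPM in the wild type replicates 1 to 3, with a log2 fold change of 0.09 (SE 0.222, 95% interval -0.42 to 0.60, edgeR adjusted p = 0.905), or -0.065 without wild type replicate 1. These intervals show which sizes of change the data still allow, and they are widest for Gzmb and Areg.

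**Figure D3:**
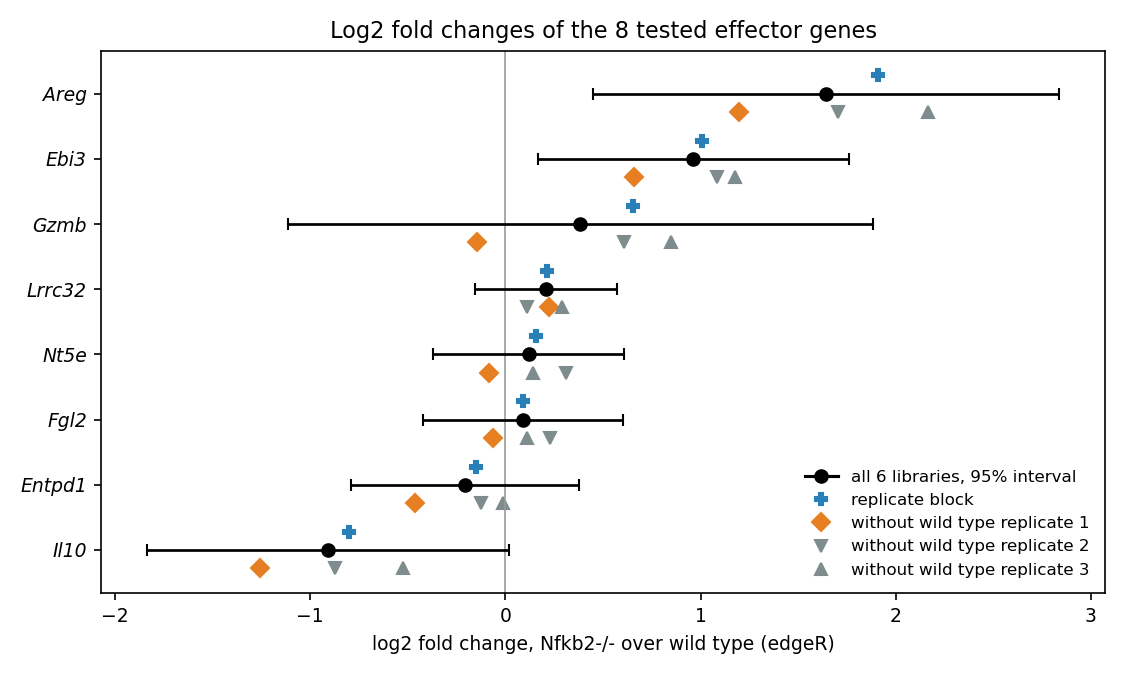
Log2 fold change of each tested gene, Nfkb2-/- over wild type, from edgeR (horizontal axis), with the value from all 6 libraries and its 95% interval in black, the fit with replicate number as a block in blue, and fits without one wild type library in orange and grey. Leaving out wild type replicate 1 moves every gene but Lrrc32 to lower values, to 1.20 for Areg and -1.26 for Il10.

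Per length of all annotated exons, Lrrc32 led in both genotypes, at 278 CPM per kb in Nfkb2-/- and 240 CPM per kb in wild type. The transcripts in use can be shorter than this length and were not examined, so the order between genes is approximate. In Nfkb2-/- libraries Areg came second at 114 ± 19.6 CPM per kb, then Nt5e at 45.2 ± 3.42 and Il10 at 24.9 ± 7.13 CPM per kb (SD, n = 3), with no overlap between these neighbours. In wild type libraries Il10 at 46.9 ± 23.9, Nt5e at 41.6 ± 11.6 and Areg at 36.8 ± 24.6 CPM per kb (SD, n = 3) followed Lrrc32 and overlapped each other. Fgl2, Ebi3, Entpd1 and Gzmb were lower, with means of 3.69 to 7.31 CPM per kb in Nfkb2-/- and 2.88 to 6.87 CPM per kb in wild type. Among these, neighbouring genes overlapped at every step in wild type, but in Nfkb2-/- only Fgl2 and Ebi3 did. Il12a was last at 0.0298 CPM per kb in Nfkb2-/- and 0.0959 CPM per kb in wild type.

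**Figure D4:**
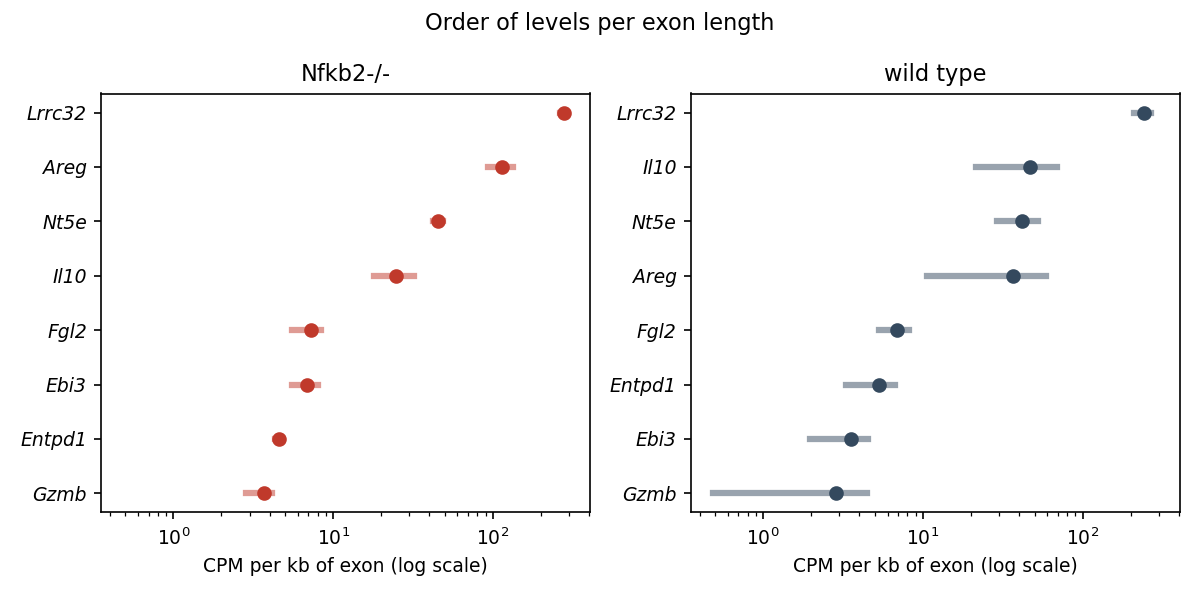
Mean level per kilobase of exon (points) and range over 3 libraries (bars) on a log axis, in Nfkb2-/- at left and wild type at right, ordered from highest to lowest within each genotype, without Il12a. Areg is second at 114 CPM per kb in Nfkb2-/- and behind Il10 and Nt5e at 36.8 CPM per kb in wild type.

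The genes whose pattern over the 6 libraries came closest to each member were found by the root mean square difference of log2 CPM centred on each gene's mean, among 9180 protein-coding genes of at least 5 CPM. For Areg they were Gem, a small GTPase gene, and Itgae, the integrin chain CD103, at 0.22 and 0.24. Itgae was at 237, 278 and 303 CPM in Nfkb2-/- Treg replicates 1 to 3 and 37.9, 127 and 137 CPM in wild type replicates 1 to 3, the same order of libraries as Areg. For Il10 they were Egr3, a transcription factor induced by T cell receptor signals, and Rilpl2, at 0.19 and 0.23. Those of Ebi3 were Sgk1, a serum-induced kinase, and Serpinc1, at 0.07 and 0.08. For the other members they were Naif1 and Pld3 (Lrrc32), Ramp1 and H2-Oa (Gzmb), mt-Co1 (Entpd1), Dnajc25 and Nfatc1 (Nt5e), and Qtrt2 and Mknk2 (Fgl2), at 0.04 to 0.18. Among members, Nt5e and Fgl2 were the closest pair, at 0.16. Small differences are easier to reach for genes that vary little, such as Lrrc32.

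The members lie on 8 chromosomes, and a pair lies near loci that can differ between donors for other reasons. Entpd1 (chromosome 19, 40612366 to 40741602, GRCm38) is 5.56 Mb from Nfkb2, where 3 of 138 genes tested within 10 Mb were called, or 2.17%. Il10 (chromosome 1, 131019845 to 131024974) is 7.04 Mb from Ptprc, the gene of the donor marker CD45, where 6 of 95 were called, or 6.32%, against 1.42% of all genes. The labels do not say which marker or strains were used, and for these genes linked sequence and genotype cannot be told apart.

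Genes that make, receive or release these molecules were read from 8 lists with 106 genes, of which 80 passed the filter. Of the 80, 2 rose, or 2.50%, and 0 fell, where 1.01% of all genes tested rose and 0.405% fell. An unadjusted p under 0.05 was found for 24 of the 80, against 13.6% of all genes tested. Blocking on the replicate number gave 6 higher and 1 lower, where 1.47% and 0.697% of all genes were. DESeq2 gave 10 higher and 2 lower (2.32% and 1.37% of all genes), and edgeR with no count filter 5 and 2 (1.08% and 0.642%). The B cell marker covariate gave 23 and 1 (6.24% and 7.37%), and leaving out wild type replicate 1 gave 10 and 7 (4.6% and 4.44%). Without Nfkb2-/- replicate 1, 2 or 3 neither gene was called, when 0.109%, 0.0509% and 0.087% of all genes were. With the Y-linked sum as a covariate neither was called, and 0% of all genes were. That sum did not overlap between the genotypes, so this fit cannot tell donor sex from genotype and does not bear on either gene.

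The call among 12 genes of interleukin-10 signalling and its regulators was Bhlhe40, a transcription factor known to repress Il10 in mouse helper T cells. It was at 1493, 1496 and 1791 CPM in Nfkb2-/- Treg replicates 1 to 3, against 346, 467 and 486 CPM in the wild type replicates 1 to 3, with 1.88 as its log2 fold change (SE 0.188, edgeR adjusted p = 0.00807). All Nfkb2-/- libraries stood more than 3-fold above every wild type library. The receptor chains Il10ra and Il10rb were not called, with log2 fold changes of 0.35 and -0.28. Of 13 tested cytotoxic granule genes 1 rose, Rab27a, a GTPase that docks granules for release. Rab27a was at 112, 121 and 131 CPM in Nfkb2-/- Treg replicates 1 to 3, against 52.1, 62.8 and 55.4 CPM in the wild type replicates 1 to 3 (log2 fold change 1.10, SE 0.127, edgeR adjusted p = 0.0112). Its genotypes did not overlap, while the granule protein genes Prf1 (perforin) and Gzma had log2 fold changes of -0.05 and 0.08.

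In the 2 lists above, the replicate block also called Stx11, a membrane fusion gene of granule release, higher and Irf4, a transcription factor gene of effector Tregs, lower. In the other lists the main edgeR test, with all libraries and genotype as only term, called no gene. The gene with the smallest p in that test is given for each. Other settings called more genes, as counted above. With the block, Itgb8 and Itgav, the chains of an integrin that activates latent TGF-beta, and Havcr2 were called higher. Of 12 genes of latent TGF-beta storage and activation, 6 had an unadjusted p under 0.05 (13.6% of all genes did) and the smallest was that of Nrros, a GARP relative that holds latent TGF-beta on myeloid cells, at 61.0 ± 4.19 CPM in Nfkb2-/- Tregs and 40.4 ± 4.74 CPM in wild type Tregs (SD, n = 3 each, edgeR adjusted p = 0.0925). DESeq2, edgeR with the B cell marker covariate and edgeR without wild type replicate 1 called Nrros higher. Tgfb1, the cytokine that GARP holds, had a log2 fold change of 0.54 (edgeR adjusted p = 0.317). Among 16 nucleotide and adenosine genes it was Art2b, an ecto-ADP-ribosyltransferase, at 24.6 ± 3.11 and 34.2 ± 4.25 CPM in Nfkb2-/- Tregs and wild type (SD, n = 3 each, edgeR adjusted p = 0.243), while the adenosine receptor gene Adora2a had a log2 fold change of 0.61 (edgeR adjusted p = 0.279). Of 8 EGF family genes it was Adam17, a protease that sheds amphiregulin, at 115 ± 3.93 CPM in Nfkb2-/- Tregs and 96.3 ± 3.32 CPM in wild type Tregs (SD, n = 3 each, edgeR adjusted p = 0.341). Interleukin-12 family genes gave Il23r, a receptor chain of interleukin-23, at 3.64 and 1.84 CPM in Nfkb2-/- Tregs and wild type (5 tested, edgeR adjusted p = 0.362).

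Of 3 tested fibrinogen-like ligand and receptor genes, Fcgr2b, the inhibitory Fc receptor that binds Fgl2, was at 1.08, 0.985 and 1.38 CPM in Nfkb2-/- Treg replicates 1 to 3, against 3.18, 9.18 and 4.12 CPM in the wild type replicates 1 to 3 (log2 fold change -2.25, edgeR adjusted p = 0.0682). DESeq2, edgeR with no count filter and edgeR without wild type replicate 1 called Fcgr2b lower. B cells express Fcgr2b, and the B cell marker sum given above was lower in the same libraries. Its part was not tested. Of 11 other suppressive surface molecules and lectins, Havcr2, the gene of TIM-3, was at 15.2, 19.2 and 18.9 CPM in Nfkb2-/- Treg replicates 1 to 3 and at 4.10, 8.07 and 7.73 CPM in wild type replicates 1 to 3 (edgeR adjusted p = 0.0561). Besides the block, limma-voom, DESeq2, edgeR with no count filter, edgeR with the B cell marker covariate and edgeR without wild type replicate 1 called it higher. In this list 5 of 11 genes did not overlap between genotypes, against 20.6% of all genes tested. Of these Havcr2, Itgae, Tigit and Pdcd1 were higher in Nfkb2-/- Tregs and Il2ra, the interleukin-2 receptor alpha chain, was lower, with a log2 fold change of -0.38 (edgeR adjusted p = 0.305).

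**Figure D5:**
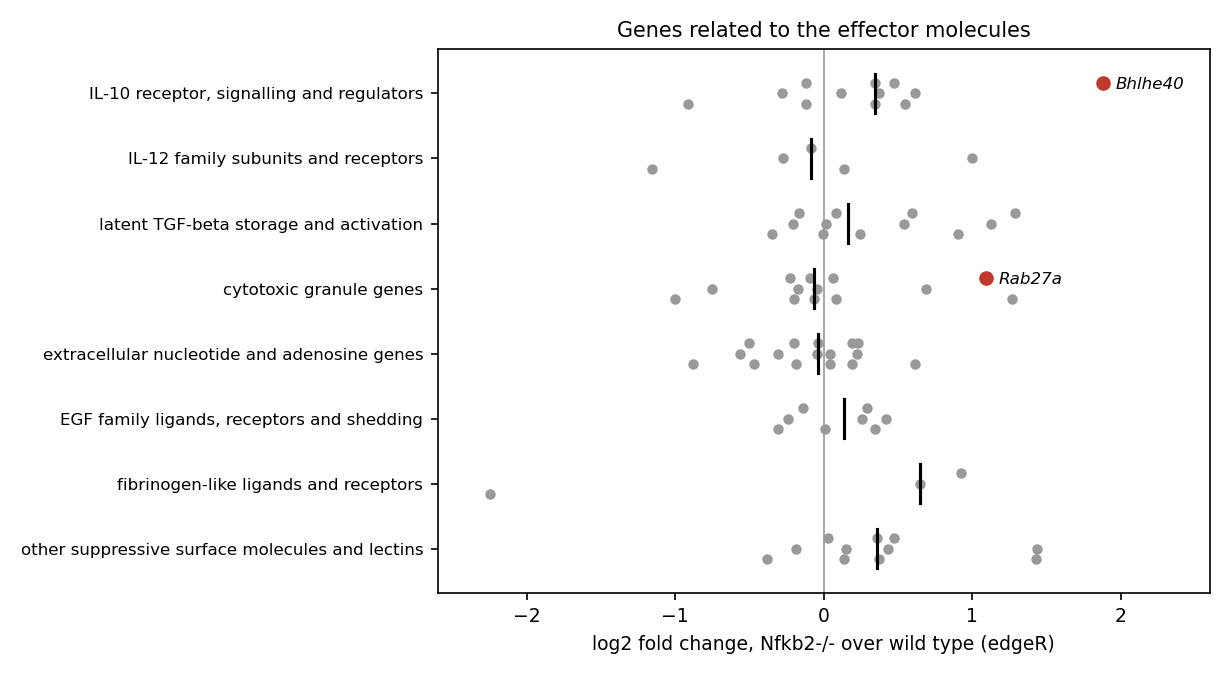
Log2 fold change, Nfkb2-/- over wild type (edgeR, horizontal axis), of the 80 tested genes in 8 lists, one point a gene, with list medians as black bars. Red points passed an adjusted p of 0.05, which holds for Bhlhe40 at 1.88 and Rab27a at 1.10.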

How the data were processed

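The deposited values are raw read counts per Ensembl gene, which the authors did not normalize. FastQC, HISAT2, HTSeq, DESeq2 and GRCm38 are named in the submitters' processing notes without roles, and the library kit, TruSeq RNA v2 per the labels' protocols, does not mark strand. Versions and the counting mode are not given in the sources used here. GENCODE M21 (GRCm38) matched 55480 of 55573 identifiers.

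The test was that of edgeR 4.0.16, run in R 4.3.3 (filterByExpr, TMM, robust quasi-likelihood fit, genotype as only term), with Benjamini-Hochberg adjustment over 13347 genes and a threshold of 0.05. CPM are counts scaled by TMM-adjusted library size, and CPM per kb divides by the union of annotated exons. Intervals of log2 fold changes are at 95%. The code was tested on simulated data. Members and lists were chosen with earlier results of these data known. All 9 members are named, and from each related list up to 3 called genes by p, or otherwise the gene with the smallest p, with further list members chosen for their roles after their values were seen, as are the 2 genes nearest in pattern to each tested member (log2 of CPM + 0.5). One gene under this rule is not reported here.

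Replicate numbers are shared between genotypes. Libraries with the same number had correlations of 0.364, 0.267 and 0.111 in their deviations from their genotype means. Those with different numbers ran from -0.428 to 0.251, the highest being Nfkb2-/- replicate 3 with wild type replicate 2. Pairing by number is thus uncertain, and it was fitted only as the replicate block. The main test and the permutation tests took the libraries as unpaired. Also tried were upper-quartile and RLE scaling, no filter, 1 CPM in 3 libraries, DESeq2 1.42.0, limma-voom (limma 3.58.1), the replicate block, Y-linked and B cell marker sums as covariates, and each library left out. Exact permutation tests used SciPy 1.17.1 and figures matplotlib 3.10.9.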

Additional observations from a re-analysis of the deposited data

How the results depend on the processing

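Of the 8 tested members, 3 were called higher with the B cell marker sum as a covariate (Ebi3, Nt5e and Areg), where 6.24% of all genes were, and 0 with all libraries and no covariate. With each library left out in turn 0 to 1 were called higher and 0 to 2 lower, with calls only without wild type replicate 1. The median log2 fold change of the members was 0.51 with the Y-linked covariate and 0.66 with the B cell covariate, and ran from -0.074 to 0.27 with each library left out. Related genes called higher numbered 5 with no count filter, 10 by DESeq2, 6 in the replicate block, 0 with the Y-linked covariate, 23 with the B cell covariate and 0 to 10 with each library left out, and those called lower 2, 2, 1, 0, 1 and 0 to 7. The block changed no member's call and gave Areg an adjusted p of 0.0621. Log2 fold changes turned to 0.090 for Il10 and 0.44 for Entpd1 with the B cell covariate, to -0.14 for Gzmb, -0.082 for Nt5e and -0.065 for Fgl2 without wild type replicate 1, and to -0.015 for Fgl2 without Nfkb2-/- replicate 3, while these genes reached 0.85, 0.31 and 0.25 with another library left out. The cause was not tested. Areg and Ebi3 stayed positive in all 15 alternatives, from 1.20 to 3.23 and from 0.66 to 1.83, and Lrrc32 from 0.06 to 0.29. The 13 counts of Gzmb in wild type replicate 1 and the 2 and 6 counts of Il12a per genotype limit what can be seen for these genes.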

Other observations

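Among the markers of CD8 T and natural killer cells, Eomes, a transcription factor of cytotoxic lymphocytes, rose alone. It was at 21.0, 15.0 and 21.8 CPM in Nfkb2-/- replicates 1 to 3, against 4.26, 7.60 and 7.31 CPM in wild type replicates 1 to 3 (log2 fold change 1.60, edgeR adjusted p = 0.0364). In the same libraries Cd8b1 was at 6.26 to 8.94 CPM in Nfkb2-/- Tregs and 10.7 to 11.4 CPM in wild type, while Klrd1 was at 0.662 to 0.915 CPM in Nfkb2-/- Tregs and 0.840 to 5.02 CPM in wild type. Ncr1 was at 0.165 to 0.489 CPM in Nfkb2-/- Tregs and 0.0791 to 0.162 CPM in wild type, on at most 6 counts a library. Gzma, Prf1 and Nkg7 had log2 fold changes of 0.079, -0.048 and -0.17.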
